A study of Mus musculus with 39 samples.

Results

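Epiblasts of *Stat3* null embryos collected at embryonic day (E) 6.5 were compared with WT epiblasts collected at E5.5, the stage before, to ask how far the mutant tissue had moved from the earlier WT state. The members are every library with either label, 8 E6.5 *Stat3* null and 2 E5.5 WT, that is 10 of the 39 libraries of the series. E6.5 WT (n = 9) and E5.5 *Stat3* null (n = 4) libraries served for reference. Each library was made from the RNA of a single epiblast, dissected from litters of *Stat3* heterozygous inter-crosses on the CD1 background and freed by hand of extraembryonic ectoderm and visceral endoderm. The null embryos carry a germline allele in which exons 20 to 22 of *Stat3* are replaced by a neomycin resistance cassette, so every tissue of the embryo, extraembryonic ones included, lacks the functional gene, while reads from the other exons can still be counted. Genotypes were read from extraembryonic tissue, and the WT embryos came from the same kind of mating. No label ties a library to a litter, and with 1 epiblast per library the p-values below measure the spread between embryos.

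STAT3 is the transcription factor that LIF and other gp130 cytokines activate through JAK kinases, and in mouse embryonic stem cells it sustains the naive pluripotency network. After implantation the epiblast leaves that state, passes through a formative phase and becomes a primed epithelium that can form the primitive streak and neural ectoderm. A day of development at this time changes pluripotency, growth and cell surface genes together, so the earlier WT stage serves as a measuring stick for mutants of the next day.

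Total counts were 26600944 and 28445002 in the E5.5 WT libraries and 27913392 to 79013960 in the nulls, of which replicates 1 to 3 exceeded 40000000. Null replicates 2 and 3 were deep but held few genes, 14250 and 13954 with at least 10 counts, against 17189 to 18074 in the other 6. Levels below are CPM, counts scaled to the size of each library after TMM normalization over the 23 E5.5 and E6.5 libraries, and the floor of 3 counts that stands for a count of 0 equals 0.0401 to 0.116 CPM in the 10 libraries. The 2 values of E5.5 WT are those of replicate 1 and replicate 2, in that order. All 10 epiblast markers were found above 3 counts in every one of the 10 libraries. Their summed level was 2684 and 4144 CPM at E5.5 WT and 3370 to 5888 CPM in the nulls, with a median of 4745 CPM. RNA of epiblast markers was thus found in every library, but the sum rests largely on *Dnmt3b* and does not settle the tissue. That gene gave 1932 and 3092 CPM in E5.5 WT and 2592 to 4478 CPM in the nulls. Null replicate 1 held 19.9 CPM of *Fgf5* and 53.1 CPM of *Otx2*, against 106 to 142 CPM and 109 to 179 CPM in the other nulls. Its *Pou3f1*, at 183 CPM, was the highest of the nulls. Other tissues were present too. The 18 visceral endoderm markers summed to 6492 and 7989 CPM in E5.5 WT and to 169 to 7287 CPM, median 1031 CPM, in the nulls, so that null replicates 3, 4 and 8, at 7287, 5223 and 4700 CPM, lay near the earlier WT and the other 5 did not exceed 1262 CPM. All 18 were detected in both E5.5 WT libraries and 15 in every null. The 13 extraembryonic ectoderm markers summed to 852 and 109 CPM in E5.5 WT and to 1457 CPM in null replicate 1, with 48.5 to 135 CPM in the other nulls. Maternal and blood markers reached at most 14.8 CPM in sum. Fewer cells of a type and less RNA per cell cannot be told apart in bulk libraries. A library was taken to carry Y chromosome transcripts when 4 Y chromosome genes summed to more than 50 CPM, and is otherwise described as without them. Both E5.5 WT libraries, at up to 1.005 CPM, and 4 nulls, at up to 9.12 CPM, lay below this cutoff. The other 4 nulls (replicates 2, 3, 5 and 8) carried such transcripts at 145 CPM or more.

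**Figure D1:**
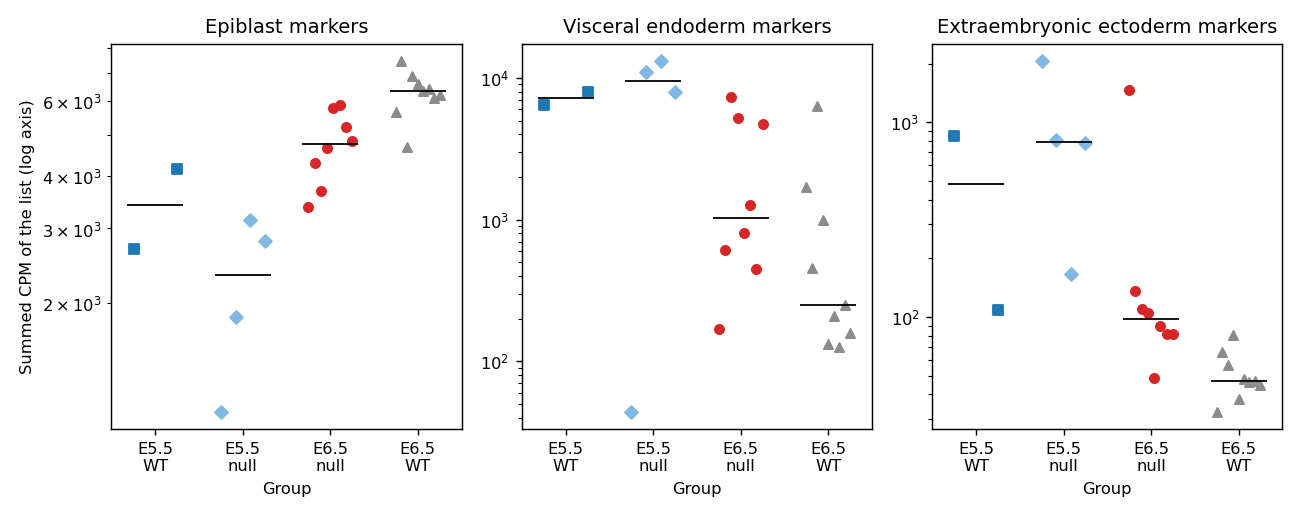
Summed CPM (log axis) of epiblast, visceral endoderm and extraembryonic ectoderm markers in each library of 4 groups, with a line at the group median. E5.5 WT libraries held 6492 and 7989 CPM of visceral endoderm markers, null replicate 3 held 7287 CPM, and null replicate 1 held 1457 CPM of extraembryonic ectoderm markers.

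*Stat3* itself (GRCm38, chr11:100885098-100939540, minus strand) was read first as a check of the labels. Its level was 50.8 and 39.2 CPM in E5.5 WT and 1.40 to 8.02 CPM, median 3.90 CPM, in the nulls. No null came near either WT library, and *Stat3* fell by 3.37 on the log2 scale (SE 0.52, adjusted p = 0.0265, edgeR quasi-likelihood test with Benjamini-Hochberg adjustment, as for every adjusted p below). The gene also declined between the WT stages, with 5.59 to 28.2 CPM and a median of 12.0 CPM in E6.5 WT, where 3 of the 8 nulls lay within the WT range. The difference from E5.5 WT thus combines the genotype with the stage, and the 2 cannot be told apart in this contrast alone. E6.5 null against E6.5 WT gave -1.60 for *Stat3* (adjusted p = 0.334), and E6.5 WT against E5.5 WT gave -1.74 (adjusted p = 0.0198). The check of the labels thus did not reach an adjusted p under 0.05 at the matched stage.

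A gene was called when its log2 fold change exceeded 1 in size with an adjusted p under 0.05. Of 20326 genes tested, 33 were called (0.162%), 13 higher (0.0640%) and 20 lower (0.0984%) in the nulls, and 1970 had an unadjusted p under 0.05 (9.69%). In all 33 every null lay on the same side of both E5.5 WT libraries, a separation that 10.2% of the genes tested showed. The same E5.5 WT libraries set against E6.5 WT gave 1070 calls of 20763 genes (5.15%). E6.5 null against E6.5 WT gave 0 of 17095 by edgeR, with 1414 at an unadjusted p under 0.05 (8.27%) and 18 calls by DESeq2. These 3 comparisons share libraries, and their counts are given side by side only. The count of 33 depended on single libraries. It was 4 without E5.5 WT replicate 1 and 10 without replicate 2, where the lone E5.5 library is assumed to vary like the nulls, and it was 173, 94, 16, 8, 19 and 19 without null replicate 1, 3, 5, 6, 7 or 8. Without the 3 deepest nulls 929 genes were called, all 33 among them.

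**Figure D2:**
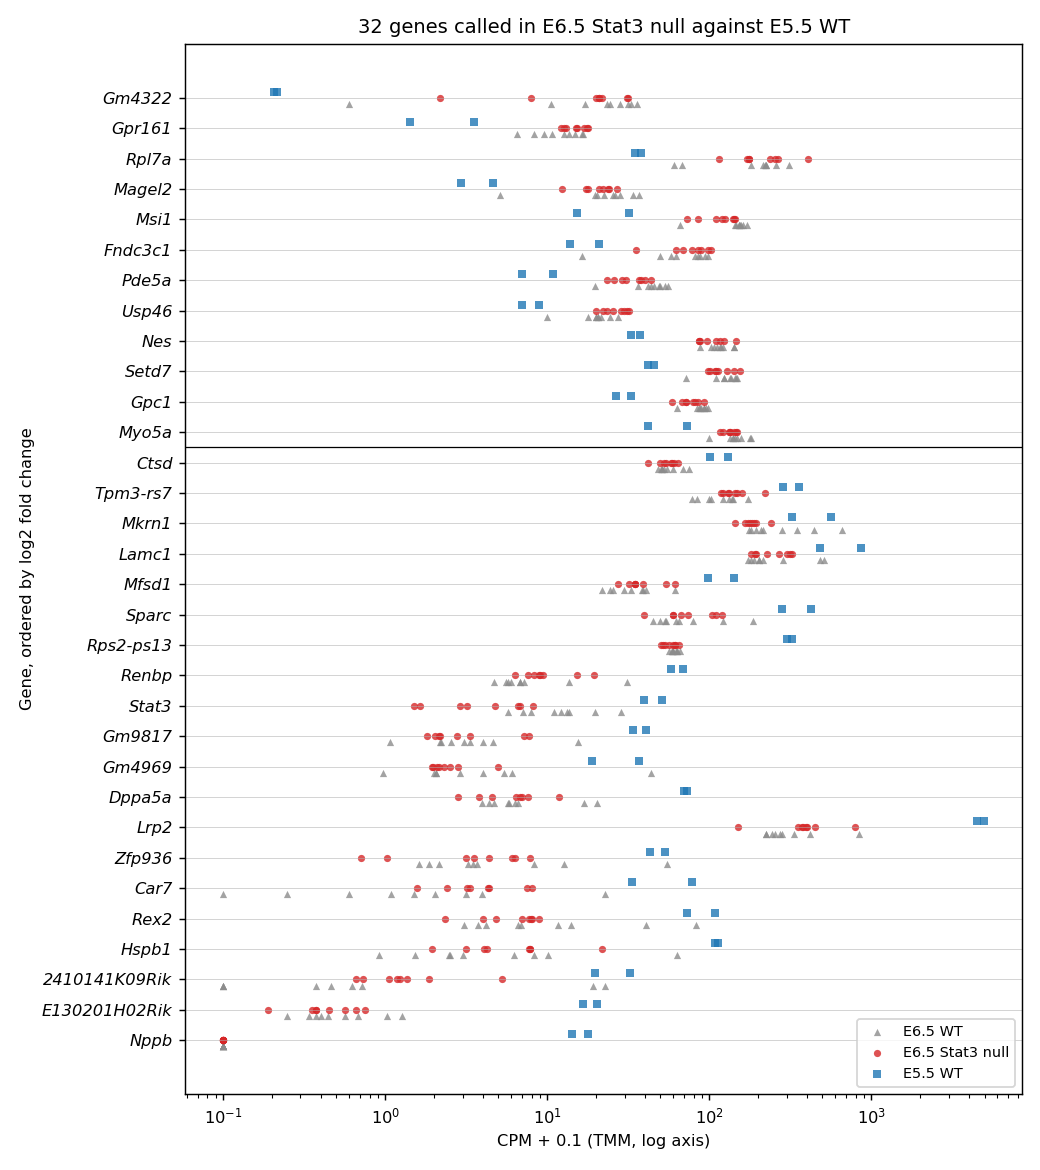
CPM + 0.1 (log axis) of 32 of the 33 called genes in each E5.5 WT (squares), E6.5 *Stat3* null (circles) and E6.5 WT (triangles) library, ordered by log2 fold change, with 12 higher genes above the line. In every row the 8 nulls lie on the same side of both E5.5 WT squares, and in the lower part E6.5 WT triangles reach the lower E5.5 WT square for *Mkrn1* (3 libraries) and for *Rex2*, *Gm4969*, *Zfp936*, *2410141K09Rik* and *Lamc1* (1 library each).

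Among the 13 higher genes, 2 belong to a list of neural genes. *Nes*, which encodes the intermediate filament nestin of neural progenitors, was at 32.8 and 37.5 CPM in E5.5 WT and at 85.9 to 145 CPM, median 104 CPM, in the nulls (log2 fold change 1.61, SE 0.23, adjusted p = 0.0194). *Msi1*, which encodes an RNA-binding protein of neural stem cells, went from 15.2 and 31.7 CPM to 73.0 to 144 CPM, median 122 CPM (log2 fold change 2.34, SE 0.34, adjusted p = 0.0194). Both reached the level of E6.5 WT, whose medians were 117 CPM for *Nes* and 153 CPM for *Msi1*, with 5 and 8 of the 8 nulls inside the E6.5 WT range. The other members of the list did not follow as a group. Of 15 tested, 7 had a log2 fold change above 0 and 8 below, with a median of -0.17 against 0.02 over all genes tested, and *Msi2*, at 52.5 and 59.7 CPM in E5.5 WT and 51.2 to 119 CPM in the nulls, missed the call (0.82, adjusted p = 0.254).

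A chromatin gene and an imprinted gene were also higher. *Setd7*, a lysine methyltransferase, stood at 45.8 and 42.0 CPM in E5.5 WT and at 98.6 to 156 CPM, median 111 CPM, in the nulls (1.46, SE 0.21, adjusted p = 0.0182). *Magel2*, a paternally expressed imprinted gene that encodes a ubiquitin ligase adaptor, rose from 2.82 and 4.53 CPM to 12.2 to 26.7 CPM (2.49, SE 0.40, adjusted p = 0.0315).

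The sequence before the start of *Setd7* is shown because this gene had the smallest p among the higher ones with a RefSeq promoter, and that of *Rex2* because it had the smallest among the lower ones. Both are from RefSeq on GRCm38.p6, 5′ to 3′ on the strand of the gene, and TTCNNNGAA, the palindromic core bound by STAT proteins and the same letters on both strands, is in capitals where it occurs. The *Setd7* stretch lies at chr3:51560880-51561073 on the minus strand, ends at the base before the annotated gene and overlaps an exon of the antisense noncoding gene *5031434O11Rik*.
Setd7: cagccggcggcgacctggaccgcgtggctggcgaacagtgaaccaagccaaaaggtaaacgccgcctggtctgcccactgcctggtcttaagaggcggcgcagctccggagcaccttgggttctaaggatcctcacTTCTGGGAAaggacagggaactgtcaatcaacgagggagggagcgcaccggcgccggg
Rex2: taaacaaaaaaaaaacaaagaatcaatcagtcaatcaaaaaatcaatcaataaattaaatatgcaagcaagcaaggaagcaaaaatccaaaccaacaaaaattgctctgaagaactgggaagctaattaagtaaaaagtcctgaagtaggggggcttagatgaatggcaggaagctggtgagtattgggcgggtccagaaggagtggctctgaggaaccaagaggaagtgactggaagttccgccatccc
The *Rex2* stretch lies at chr4:147021600-147021849 on the plus strand. *Setd7* holds 1 match, ending 49 bases before the gene, and 16 CG dinucleotides in 194 bases, while *Rex2* holds no match and 2 CG in 250 bases. Over the 250 bases before each RefSeq start, 7.02% of 32851 windows held the motif, against 1 of 10 windows of the higher genes and 0 of 16 of the lower genes. RefSeq windows were listed for 9 of the 13 higher and 13 of the 20 lower genes.

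The other higher calls had varied roles. *Gpc1*, a heparan sulphate proteoglycan that binds growth factors, was at 32.7 and 26.6 CPM in E5.5 WT and at 58.6 to 93.4 CPM, median 75.5 CPM, in the nulls (1.37, SE 0.21, adjusted p = 0.0232). *Gpr161*, a receptor of the primary cilium that restrains Hedgehog signalling, was at 1.31 and 3.44 CPM against 12.0 to 17.8 CPM, median 15.05 CPM (2.67, SE 0.46, adjusted p = 0.0443). The nulls were tightly grouped for this gene, and 3 of them exceeded the highest E6.5 WT library at 16.5 CPM. *Pde5a*, a phosphodiesterase that degrades cyclic GMP, was at 6.84 and 10.7 CPM against 23.3 to 43.6 CPM (1.94, SE 0.32, adjusted p = 0.0371), and *Myo5a*, a myosin motor for vesicles, at 41.9 and 72.7 CPM against 116 to 148 CPM (1.24, SE 0.20, adjusted p = 0.0267). *Usp46*, which encodes a deubiquitinase, was at 6.92 and 8.73 CPM against 19.998 to 31.7 CPM (1.77, SE 0.30, adjusted p = 0.0371), with 4 of the 8 nulls above the E6.5 WT range of 9.86 to 27.2 CPM. The X-linked *Fndc3c1*, a gene with fibronectin type III domains, was at 20.7 and 13.6 CPM against 35.4 to 102 CPM (2.18, SE 0.37, adjusted p = 0.0398). In the 4 nulls without Y chromosome transcripts, which match the E5.5 WT libraries in this respect, *Fndc3c1* stood at 61.9 to 102 CPM.

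The lower genes included members of the pluripotency network. *Dppa5a*, which encodes an RNA-binding protein of naive pluripotent cells, was at 69.3 and 72.8 CPM in E5.5 WT and at 2.70 to 11.7 CPM, median 6.48 CPM, in the nulls (-3.50, SE 0.38, adjusted p = 0.00418). *Rex2*, a zinc finger gene expressed in pluripotent cells, fell from 73.2 and 109 CPM to 2.23 to 8.76 CPM, median 7.25 CPM (-3.85, SE 0.37, adjusted p = 0.00158). Neither gene left any null near the earlier stage. Of 13 tested genes on the naive list, *Rex2* was the single call, 10 had a log2 fold change below 0, and the median was -1.36. The summed level of the list was 459 and 352 CPM in E5.5 WT and 79.9 to 302 CPM in the nulls, with the highest sum in null replicate 1. *Dppa3*, a maternal and naive factor, was at 7.96 and 24.4 CPM against 0 to 4.33 CPM (-3.48, adjusted p = 0.393). *Nanog*, counted on the naive list although it returns in the primed epiblast, was at 2.51 and 5.86 CPM against 7.44 to 105 CPM, median 21.3 CPM (2.88, adjusted p = 0.336). Its nulls spread over more than the distance between stages.

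A group of lower genes did not behave alike in E6.5 WT. *Mkrn1*, which encodes an E3 ubiquitin ligase, was at 326 and 561 CPM in E5.5 WT and at 144 to 240 CPM, median 182 CPM, in the nulls (-1.26, SE 0.18, adjusted p = 0.0194). Its E6.5 WT range of 177 to 657 CPM took in both E5.5 WT libraries. *Zfp936*, a zinc finger gene, was at 53.3 and 43.0 CPM against 0.604 to 7.78 CPM in the nulls (-3.56, SE 0.63, adjusted p = 0.0484), and *Gm4969*, since named *Meiosin* for its role at meiotic entry, at 18.7 and 37.0 CPM against 1.84 to 4.84 CPM (-3.47, SE 0.45, adjusted p = 0.0117). *2410141K09Rik* was at 32.4 and 19.7 CPM against 0.557 to 5.16 CPM (-4.04, SE 0.68, adjusted p = 0.0371). For *Rex2* and these 4, E6.5 WT replicate 3 held the highest E6.5 WT value, 82.7 CPM of *Rex2*, 657 CPM of *Mkrn1*, 54.5 CPM of *Zfp936*, 43.7 CPM of *Gm4969* and 22.7 CPM of *2410141K09Rik*. That WT library also held 6312 CPM of visceral endoderm markers, more than null replicate 4 or 8 and less than null replicate 3, where *Rex2* stood at 7.60 CPM and *Mkrn1* at 179 CPM. None of the 5 was called in E6.5 WT against E5.5 WT, with adjusted p of 0.256 to 0.589, nor in E6.5 null against E6.5 WT, where their unadjusted p were 0.0147 for *Rex2*, 0.0078 for *Mkrn1*, 0.0241 for *Gm4969*, 0.0787 for *Zfp936* and 0.2004 for *2410141K09Rik*. *Fgf4*, the ligand through which the epiblast signals to trophectoderm derivatives, had the same arrangement without a call, at 41.2 and 59.7 CPM in E5.5 WT, 1.81 to 15.95 CPM in the nulls and 5.18 to 93.2 CPM in E6.5 WT (-2.39, adjusted p = 0.0867).

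Another 5 lower calls encode proteins of endocytosis, the matrix and the lysosome, a grouping made after the calls were seen. *Lrp2*, which encodes the endocytic receptor megalin, was at 4991 and 4472 CPM in E5.5 WT and at 151 to 789 CPM, median 389 CPM, in the nulls (-3.51, SE 0.35, adjusted p = 0.00512). *Sparc*, a matricellular glycoprotein gene, was at 422 and 281 CPM against 39.6 to 119 CPM (-2.14, SE 0.30, adjusted p = 0.0182), and *Lamc1*, the laminin gamma 1 chain, at 860 and 485 CPM against 180 to 325 CPM (-1.42, SE 0.24, adjusted p = 0.0371). The lysosomal protease gene *Ctsd* was at 131 and 101 CPM against 41.8 to 64.1 CPM (-1.07, SE 0.17, adjusted p = 0.0265) and the lysosomal transporter gene *Mfsd1* at 142 and 97.5 CPM against 27.2 to 61.7 CPM (-1.58, SE 0.26, adjusted p = 0.0366). These genes are also active in visceral endoderm, whose markers were not called themselves. Of the 18 markers tested 0 were called in either direction by edgeR, 3 had an unadjusted p under 0.05, all lower, and their median log2 fold change was -1.27. *Cubn*, the partner of megalin, was at 3442 and 2806 CPM in E5.5 WT and at 53.6 to 1865 CPM in the nulls (-2.59, adjusted p = 0.463), and *Gata6*, a transcription factor of primitive endoderm, at 42.7 and 50.9 CPM against 0.682 to 22.6 CPM (-2.42, adjusted p = 0.449).

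In null replicate 3 the visceral endoderm markers summed to 101% of the E5.5 WT mean, but they were not matched one by one. Of the 18, 8 lay above that mean and 10 below, from 1.17% for *Trf* to 802% for *Afp*, with *Apob* at 155% and *Gata6* at 33.9%. In that library *Cubn* stood at 59.7% of the E5.5 WT mean, *Lamc1* at 48.4%, *Ctsd* at 45.1%, *Sparc* at 29.5%, *Renbp* at 23.8%, *Lrp2* at 16.7% and *Car7* at 7.4997%. Across the nulls, replicates 3, 4 and 8 lay above all others for *Lamc1* (303 to 325 CPM) and *Sparc* (104 to 119 CPM). The other nulls held 180 to 271 CPM and 39.6 to 73.7 CPM. The same held for *Mfsd1*, but not for *Lrp2*, *Ctsd*, *Renbp* or *Car7*. E6.5 WT replicate 3 was the highest E6.5 WT library for all of these except *Ctsd*. Whether these genes follow visceral endoderm RNA was not tested. With the visceral endoderm level as a covariate, an alternative chosen after the data were seen, 9 genes were called, 6 of them from the 33, namely *Lrp2*, *Sparc*, *Rex2*, *Dppa5a*, *2410141K09Rik* and *Rps2-ps13*. *Lrp2* then had a log2 fold change of -2.97 and *Sparc* of -1.60.

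The other lower calls had varied roles too. *Renbp*, an X-linked gene of amino sugar metabolism, was at 68.9 and 57.9 CPM in E5.5 WT and at 6.22 to 19.4 CPM in the nulls (-2.59, SE 0.35, adjusted p = 0.0118), and in the 4 nulls without Y chromosome transcripts at 7.53 to 19.4 CPM. *Car7*, a carbonic anhydrase gene, was at 33.3 and 78.6 CPM against 1.46 to 7.96 CPM (-3.71, SE 0.49, adjusted p = 0.0117). *Hspb1*, which encodes a small heat shock protein, was at 113 and 108 CPM against 1.85 to 21.8 CPM (-3.92, SE 0.59, adjusted p = 0.0234). *Nppb*, the natriuretic peptide B gene, was at 17.6 and 14.2 CPM in E5.5 WT and listed at 0 in all 8 nulls (adjusted p = 0.0380). Against 3 counts per null library this is at least 195-fold lower. *Nppb* was also at 0 in all 9 E6.5 WT libraries and at 0 to 3.05 CPM in E5.5 *Stat3* null, so the 2 E5.5 WT libraries alone held it in quantity. *E130201H02Rik*, a processed pseudogene, was at 16.5 and 20.2 CPM against 0.0884 to 0.653 CPM (-5.64, SE 0.66, adjusted p = 0.00564), and *Gm9817* at 40.7 and 33.6 CPM against 1.72 to 7.67 CPM (-3.37, SE 0.54, adjusted p = 0.0284).

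Reads of some called genes can fall on near-identical copies, defined as other genes of the table whose transcripts align for 200 bases or more, spanning 50% of the length at 95% identity or above. Such copies were found for 11 of the 33 genes. *Rps2-ps13* (chrX:52898588-52899469), a processed pseudogene of the ribosomal protein gene *Rps2*, had the smallest p of all genes, with 303 and 322 CPM in E5.5 WT and 50.4 to 65.2 CPM in the nulls (-2.43, SE 0.12, adjusted p = 1.16e-06). *Rps2* moved the other way, from 346 and 308 CPM to 516 to 720 CPM (0.996, SE 0.13, adjusted p = 0.0117), just short of the call on size, and is named here because its reads bear on the pseudogene. Summed with 22 copies, the level was 908 to 926 CPM in E5.5 WT and 773 to 1047 CPM in the nulls, a ratio of means of 1.05 against 0.184 for the pseudogene alone. The pseudogene thus changed its share of a family total that overlapped between groups. At E7.5 its level did not follow the stage, with 341 to 400.4 CPM (scaled to total counts) in 3 of the 12 libraries, WT and null, and 49.6 to 69.5 CPM in the other 9. All E5.5 libraries lay on the high side of this split and all E6.5 libraries on the low side, and the labels give no date or batch of library making. In any E6.5 against E5.5 value, a difference in how the libraries were made or sequenced and the stage therefore cannot be told apart.

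**Figure D3:**
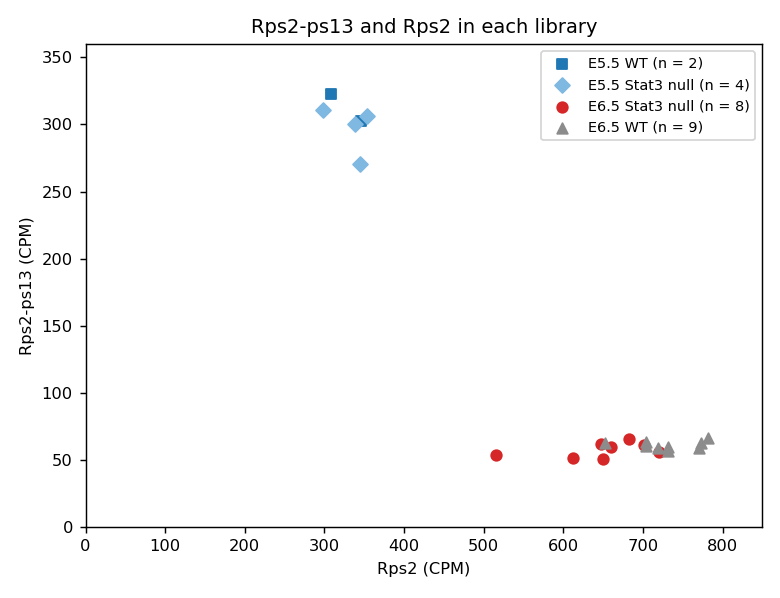
*Rps2-ps13* against *Rps2* in CPM in each E5.5 and E6.5 library. The 6 E5.5 libraries lie at the upper left and the 17 E6.5 libraries at the lower right, with E5.5 WT at 303 and 322 CPM of the pseudogene and the nulls at 50.4 to 65.2 CPM.

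*Rpl7a*, which encodes a protein of the large ribosomal subunit, was at 37.8 and 34.6 CPM in E5.5 WT and at 114 to 405 CPM in the nulls (2.65, SE 0.41, adjusted p = 0.0265), but with its 37 copies it summed to 746 to 751 CPM and 646 to 988 CPM. *Gm4322*, a processed pseudogene, held 3 counts in each E5.5 WT library and was 161-fold higher in the nulls over pooled counts (95% exact interval 74.1 to 440, counting error only; adjusted p = 0.0265). Its level also varied between embryos of 1 stage. E5.5 *Stat3* null replicates 2 and 4 held 18.8 and 21.0 CPM, near the E6.5 null median of 20.8 CPM, and replicate 3 held 0.237 CPM. E6.5 WT ranged from 0.499 to 35.7 CPM. With its copies, *Bex4* among them, *Gm4322* summed to 78.5 to 126 CPM in E5.5 WT and 67.0 to 190 CPM in the nulls. For these 3 genes the groups overlapped in the sums. *Tpm3-rs7*, a retrotransposed copy of *Tpm3*, was at 358 and 286 CPM against 118 to 219 CPM (-1.13, SE 0.20, adjusted p = 0.0443), and with *Tpm3* the ratio of means was 0.734. *Zfp936*, *Dppa5a* and *Rex2* also have copies, and their sums remained lower in the nulls, with ratios of means of 0.405, 0.143 and 0.150 against 0.0838, 0.0878 and 0.0686 for the genes alone. The called *Gm9817* is itself 1 of the 2 copies of *Hspb1*, so these calls may share reads and are not separate results. With its copies *Hspb1* summed to 142 to 155 CPM in E5.5 WT and 5.06 to 29.0 CPM in the nulls.

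To see the same step in libraries outside the main comparison, E6.5 WT (n = 9) was compared with E5.5 *Stat3* null replicates 2 to 4, which exchanges the genotypes and shares no library with it. E5.5 null replicate 1 was left out because earlier results of these data had judged it to lack epiblast markers. It held 0.659 CPM of *Pou5f1* and 0 CPM of *Otx2* and *Fgf5*, and its extraembryonic ectoderm markers summed to 2052 CPM. Its epiblast sum of 1106 CPM included 777 CPM of *Dnmt3b* and 155 CPM of *Pou3f1*, and its visceral endoderm markers summed to 44.1 CPM. Of 19604 genes tested 2358 were called (12.0%). Of the 33 genes, 32 were tested, 31 had the same sign, and 21 were called, that is 63.6% of the 33 and 0.891% of the 2358. Over the 18879 genes tested in both, 69.6% had the same sign. All 13 higher genes kept their sign and 10 were called (5.20% of all genes were called higher), among them *Msi1* (2.75), *Setd7* (2.03) and *Nes* (1.67), while *Usp46* (0.71, adjusted p = 0.0557), *Fndc3c1* (0.63) and *Gm4322* (0.75) were not. Of the 19 lower genes tested, 11 were called (6.83% of all genes were called lower), with *E130201H02Rik* (-5.18), *Lrp2* (-4.28), *Sparc* (-2.72), *Rps2-ps13* (-2.33) and *Dppa5a* (-2.20) among them. *Rex2* (-1.41, adjusted p = 0.345), *Zfp936* (-1.68), *Gm4969* (-1.20), *2410141K09Rik* (-1.35), *Hspb1* (-2.75), *Lamc1* (-0.78) and *Stat3* (-0.59) missed the call, and *Mkrn1* had the opposite sign (0.21, adjusted p = 0.794). Both E5.5 groups were rich in visceral endoderm RNA, at 8008 to 13064 CPM in these 3 nulls, so this exchange does not separate the stage from that tissue.

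**Figure D4:**
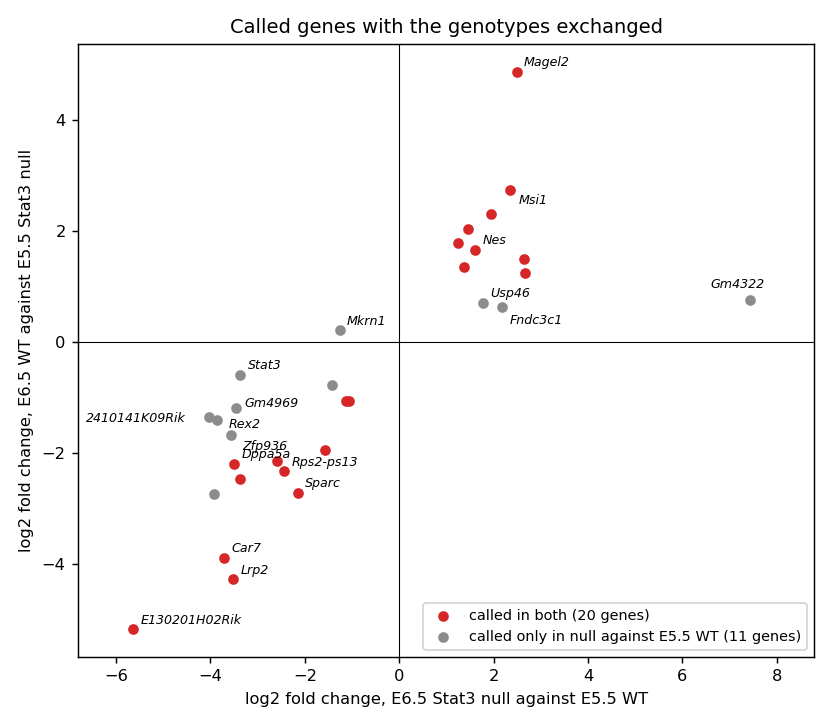
log2 fold change of 31 called genes in E6.5 *Stat3* null against E5.5 WT (x axis) and in E6.5 WT against E5.5 *Stat3* null replicates 2 to 4 (y axis), which share no library. Red points, 20 genes, were called in both, and 30 of 31 points lie in the quadrants of equal sign, *Mkrn1* being the other.

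A position between the stages was also scored on an axis that uses neither group. With 500 genes chosen for the largest difference between E5.5 *Stat3* null replicates 2 to 4 (position 0) and E6.5 WT (position 1) in rlog values, the 2 E5.5 WT libraries were placed at 0.0526 and 0.255, and the nulls at 0.398 to 0.959 with a median of 0.748. The means were 0.154 ± 0.143 (SD, n = 2) and 0.729 ± 0.217 (SD, n = 8). The difference of 0.576 gave p = 0.0222 (two-sided exact permutation test), the smallest value that 45 splits allow. No null lay as low as either E5.5 WT library. The E6.5 WT libraries, whose mean sets position 1, ranged from 0.460 (replicate 3) to 1.18, and null replicate 3 alone lay below them. E5.5 *Stat3* null replicate 1, left out of the axis for its lack of epiblast markers, scored 0.454, above null replicate 3. The score therefore does not measure stage alone. Null replicates 7, 2, 5 and 6 reached 0.959, 0.934, 0.921 and 0.861, whereas replicates 3, 4 and 8 stayed at 0.398, 0.507 and 0.621 and replicate 1 at 0.635. Replicates 3, 4 and 8 were those with 4700 to 7287 CPM of visceral endoderm markers and replicate 1 the library with extraembryonic ectoderm markers. Of the 500 genes 409 were lower in E6.5 WT, 13 were visceral endoderm markers, and 418 correlated beyond 0.5 in size with the visceral endoderm sum over the E6.5 WT libraries. On an axis without such genes, chosen after the data were seen, the difference was 0.536 (p = 0.0444, two-sided exact permutation test), and null replicate 1 at 0.298 lay below E5.5 WT replicate 2 at 0.455.

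**Figure D5:**
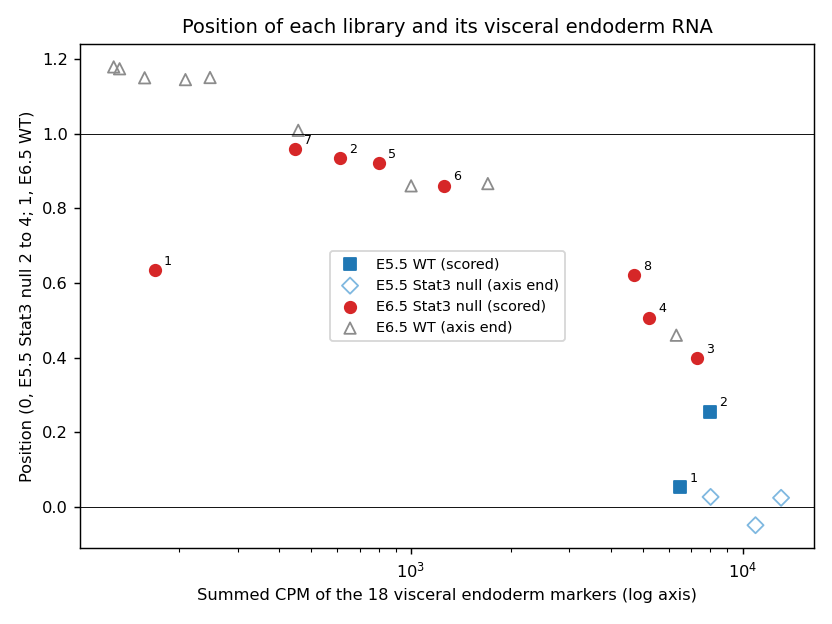
Position of each library on the axis from E5.5 *Stat3* null replicates 2 to 4 (0) to E6.5 WT (1), against the summed CPM of 18 visceral endoderm markers (log axis), with replicate numbers beside the scored libraries (filled). Nulls 3, 4 and 8, at 4700 to 7287 CPM, stand at 0.398 to 0.621, and nulls 2, 5, 6 and 7 at 0.861 to 0.959. E5.5 *Stat3* null replicate 1, at a position of 0.454, is not drawn.

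Lists of related genes outside the calls were described by counts and medians, beside a median log2 fold change of 0.02 over all 20326 genes, of which 51.2% were above 0. On the STAT3 pathway list, which holds receptors, kinases, inhibitors and targets, *Stat3* was the single call among 25 genes, and 21 of the 25 lay below 0 (median -0.59). The decline was not particular to the nulls. In E6.5 WT against the same E5.5 WT libraries 21 of 25 also lay below 0 (median -0.41), with 5 called lower and 1 higher. Over all 20763 genes of that comparison 9216 lay below 0 (median 0.10), with 547 called lower and 523 higher. In E6.5 null against E6.5 WT 17 of 24 lay above 0 (median 0.13), against 8343 of all 17095 genes (median -0.01). The kinase gene *Jak1* was at 100 and 72.0 CPM in E5.5 WT and at 26.2 to 95.6 CPM in the nulls (-0.87, adjusted p = 0.511). *Socs2*, a feedback inhibitor of cytokine signalling, was at 11.6 and 28.6 CPM against 10.9 to 63.5 CPM (1.18, adjusted p = 0.545), and the immediate early gene *Junb* at 31.9 and 14.0 CPM against 1.41 to 22.4 CPM (-1.63, adjusted p = 0.557). The groups overlapped for all 3.

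On the formative and primed list 0 of 15 genes were called by edgeR, 4 had an unadjusted p under 0.05, and the median was 0.32. *Zic5*, a zinc finger gene of ectoderm, came closest, at 36.7 and 48.2 CPM in E5.5 WT and at 76.2 to 157 CPM in the nulls (1.38, SE 0.26, adjusted p = 0.0532), and the Wnt inhibitor gene *Sfrp2* was at 11.1 and 17.7 CPM against 27.1 to 56.5 CPM (1.34, adjusted p = 0.124). Neither gene overlapped between the groups. The de novo DNA methyltransferase gene *Dnmt3b* was at 1932 and 3092 CPM against 2592 to 4478 CPM (0.48, adjusted p = 0.509), with the groups overlapping, whereas its cofactor gene *Dnmt3l* was at 164 and 168 CPM against 2.42 to 86.7 CPM (-2.93, adjusted p = 0.263). The highest *Dnmt3l* value belonged to null replicate 1.

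On the list of core factors shared by pluripotent and germ cells *Dppa5a* was the single call among 9 genes, 5 lay above 0 and 4 below, and the median was 0.27. *Pou5f1*, the gene of OCT4, was at 175 and 293 CPM in E5.5 WT and at 188 to 569 CPM, median 500 CPM, in the nulls (0.93, adjusted p = 0.470), and *Sox2* at 23.8 and 27.6 CPM against 23.6 to 68.0 CPM (0.96, adjusted p = 0.350). *Dppa2*, a chromatin factor of pluripotent cells, was at 26.7 and 52.2 CPM against 0 to 9.18 CPM (-4.25, adjusted p = 0.244), and its partner *Dppa4* at 36.4 and 28.8 CPM against 1.81 to 21.9 CPM (-2.21, adjusted p = 0.227). For both partners every null lay below E5.5 WT, and null replicate 1 was the highest null.

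Primitive streak and mesoderm genes gave 0 calls of 16 tested by edgeR, with 1 at an unadjusted p under 0.05 and a median of -0.23. *T*, the gene of Brachyury, was listed at 0 and at 0.456 CPM in E5.5 WT and at 0 to 28.9 CPM, median 3.18 CPM, in the nulls, while E6.5 WT ranged from 0 to 57.0 CPM with a median of 22.2 CPM. *Wnt3*, a ligand needed for the streak, was at 1.51 and 2.21 CPM against 0 to 49.6 CPM (2.83, adjusted p = 0.678). Nulls both with and without these transcripts were thus present, and the groups overlapped. *Lhx1*, which is shared by anterior visceral endoderm and streak, was at 116 and 260 CPM against 0.120 to 124 CPM (-2.26, adjusted p = 0.696).

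Among signalling lists, 0 of 14 Nodal pathway genes were called by edgeR, 2 had an unadjusted p under 0.05, and the median was -0.01. The activin receptor gene *Acvr2b* missed the call by a small margin, at 35.3 and 44.8 CPM in E5.5 WT and at 64.7 to 88.1 CPM in the nulls (0.99, SE 0.18, adjusted p = 0.0532). The FGF and ERK feedback list gave 0 calls of 12 by edgeR, 1 at an unadjusted p under 0.05 and a median of 0.20. *Spry4*, an inhibitor of ERK signalling, was at 94.2 and 120 CPM against 46.7 to 85.5 CPM (-0.83, SE 0.23, adjusted p = 0.185), and the ERK phosphatase gene *Dusp4* at 76.5 and 85.8 CPM against 1.41 to 48.8 CPM (-1.51, adjusted p = 0.539). Neither overlapped between null and E5.5 WT, and in E6.5 WT they were at 77.7 to 148 CPM and 35.1 to 113 CPM, with 2 and 3 of the 8 nulls inside those ranges. The summed level of the 12 genes was 604 and 585 CPM in E5.5 WT, 434 to 586 CPM in the nulls and 653 to 752 CPM in E6.5 WT, so that every null lay below every E6.5 WT library. How often genes or lists separate in that way between null and E6.5 WT was not counted. In that comparison 0 of the 12 genes were called by edgeR and 5 had an unadjusted p under 0.05, all lower, against 8.27% of all genes in either direction.

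No call fell on the growth and metabolism lists. Of 27 cell cycle and growth genes 0 were called by edgeR, 6 had an unadjusted p under 0.05, all higher, and the median was 0.29. The cyclin gene *Ccnd1* was at 38.3 and 70.5 CPM in E5.5 WT and at 61.5 to 242 CPM, median 153 CPM, in the nulls (1.51, adjusted p = 0.187), and *Ccnd2* at 1.47 and 1.86 CPM against 4.26 to 84.8 CPM (3.65, adjusted p = 0.24997). The summed level of the list was 5402 and 5513 CPM against 5826 to 6773 CPM, without overlap. Glycolysis genes gave 0 calls of 20 by edgeR and 4 at an unadjusted p under 0.05, all higher, with 18 above 0 and a median of 0.28. The enolase gene *Eno3* was at 3.48 and 2.14 CPM against 5.04 to 13.7 CPM (1.99, adjusted p = 0.195).

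The mitochondrially encoded genes lay on the other side. All 13 had a log2 fold change below 0, with a median of -0.26, 0 calls by edgeR and 3 at an unadjusted p under 0.05. *mt-Co3*, a subunit of cytochrome c oxidase, was at 465 and 412 CPM in E5.5 WT and at 260 to 320 CPM, median 302 CPM, in the nulls (-0.57, SE 0.11, adjusted p = 0.0689), and *mt-Co1*, the catalytic subunit, at 4058 and 3454 CPM against 2503 to 3324 CPM (-0.38, adjusted p = 0.202). The same pair stood at 215 to 406 CPM and 2210 to 4417 CPM in E6.5 WT, ranges that held all 8 nulls. Summed over the 13 genes the level was 15797 and 14123 CPM in E5.5 WT and 10348 to 15415 CPM in the nulls, with overlap. These transcripts share 1 precursor per strand, so they are not independent readings.

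*Lamc1* was the single call among 18 epithelium and adhesion genes, of which 14 lay below 0 (median -0.59). Its laminin partners *Lama1*, at 669 and 121 CPM in E5.5 WT against 10.9 to 106 CPM (-3.04, adjusted p = 0.137), and *Lamb1*, at 473 and 308 CPM against 100 to 310 CPM (-1.03, adjusted p = 0.212), missed the call. Laminin is made by visceral endoderm as well, and the marker values given above apply to it. A list of 14 imprinted genes, which does not hold the called *Magel2*, gave 0 calls by edgeR, 2 at an unadjusted p under 0.05 and a median of 0.64. *Grb10*, an adaptor that restrains insulin signalling, was at 268 and 247 CPM against 338 to 563 CPM without overlap (0.74, SE 0.19, adjusted p = 0.150), and *Phlda2* reached 118 CPM in null replicate 1 only.

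The DNA methylation list gave 0 calls of 12 by edgeR, 2 at an unadjusted p under 0.05 and a median of -0.06. *Zfp57*, a zinc finger gene that protects imprints, was at 41.1 and 33.01 CPM against 6.54 to 32.5 CPM (-1.04, adjusted p = 0.499). Apoptosis and p53 response genes gave 0 calls of 15 by edgeR, 3 at an unadjusted p under 0.05, all lower, and a median of -0.18. *Trp53inp1*, which is induced by p53, was at 41.8 and 65.8 CPM in E5.5 WT and at 9.26 to 29.4 CPM in the nulls (-1.59, SE 0.35, adjusted p = 0.0972), and *Sesn2*, a stress sensor, at 57.6 and 39.3 CPM against 17.1 to 33.6 CPM (-0.87, adjusted p = 0.198). Both were lower in every null than in E5.5 WT without passing the test. Of the marker lists, 0 of 13 extraembryonic ectoderm genes (1 at an unadjusted p under 0.05, median -1.23), 0 of 5 maternal and blood genes (0 at an unadjusted p under 0.05, median -1.003), 0 of 10 epiblast genes (5 at an unadjusted p under 0.05, median 0.53) and 0 of 4 Y chromosome genes (1 at an unadjusted p under 0.05) were called by edgeR.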

How the data were processed

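Per the labels and the study's methods, RNA was purified with PicoPure columns and made into libraries with the SMARTer Stranded Total RNA-Seq Kit v2 Pico. The authors used HISAT2 v2.2.1 for alignment (GRCm38) and StringTie v2.1.4 for counting, and deposited raw whole-number counts per gene. Annotation version and strand setting of the counting are not given in the sources used here, so reads of overlapping antisense genes may be shared.

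The test was edgeR 4.0.16 under R 4.3.3 (TMM, filterByExpr by group with minimum count 10 and minimum total 15, robust two-sided quasi-likelihood test, Benjamini-Hochberg adjustment), each comparison on its own libraries. A test on simulated counts preceded the analysis. Positions came from GENCODE vM21, which lists 47224 of the 47643 genes. Copies were found with blastn 2.17.0. The stage axis was computed on DESeq2 1.42.0 rlog values (blind design, 35 epiblast libraries). Alternatives also used limma 3.58.1. Named genes were *Stat3*, all calls, and the up to 4 members of each list with the smallest p. Of the calls, 1 is counted but not reported by name here. Members, lists and tests were chosen with earlier results of these data known. EpiSC libraries were not used here.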

Additional observations from a re-analysis of the deposited data

Results flagged for a closer look

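Over 52 readings in the 8 nulls (*Stat3* and the named called genes, list sums and the position), 9 had a single library set apart by a gap of more than 0.526 of the group's range, where chance gives about 1 in 20. Null replicate 1 stood apart in 6. It had 5.16 CPM of *2410141K09Rik* against 0.557 to 1.76 CPM in the others (gap 0.584 on the log2 scale, as for all gaps here). Its extraembryonic ectoderm sum was 1457 CPM against 48.5 to 135 CPM (0.700), and its core pluripotency sum 1530 CPM against 1925 to 2339 CPM (0.540). It was the highest in the neural sum, 963 CPM against 367 to 562 CPM (0.558), in the Nodal pathway sum, 815 CPM against 523 to 643 CPM (0.536), and in the glycolysis sum, 13536 CPM against 8411 to 10142 CPM (0.607). Null replicate 3 had 35.4 CPM of *Fndc3c1* against 61.9 to 102 CPM (0.527) and an apoptosis and p53 sum of 566 CPM against 662 to 738 CPM (0.591). Null replicate 2 had 4.84 CPM of *Gm4969* against 1.84 to 2.70 CPM (0.636).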

How the results depend on the processing

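The number of calls was 33 and became 450 with DESeq2, 1068 with voom and quality weights, 269 with all 35 epiblast libraries in 1 fit, 929 without the nulls over 40000000 counts, 13 with the replicate block, 4 with Y chromosome genes as a covariate and, in alternatives chosen after the data were seen, 9 with visceral endoderm markers as a covariate and 8 without the nulls that carry Y chromosome transcripts. Leaving out each library in turn gave 4 to 173. RLE size factors, no filter, a mean count of at least 50, no genes over 1% of counts and no robust option gave 29 to 48. All 33 genes kept their sign in all 23 alternatives, and all 33 were called by DESeq2. *Rps2-ps13* and *Rex2* lost the call only with the replicate block, *Lrp2* also without E5.5 WT replicate 1. None of the 33 was called with the block. Shared numbers are not said to mark litters, the deviations of same-numbered libraries correlated at 0.380 and -0.0646 for the 2 pairs, and the block rests on the 4 libraries that bear the numbers 1 and 2.

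E6.5 WT against E5.5 WT gave 1070 calls, 1921 with DESeq2, 101 with the replicate block, and 102 to 1181 without an E5.5 WT library. E6.5 null against E6.5 WT gave 18 calls with DESeq2. E6.5 WT against E5.5 *Stat3* null gave 2358 calls and 300 with the replicate block. The position difference was 0.576 and 0.474 to 0.677 without 1 library, with p = 0.0278 without any 1 null and p = 0.111 without either E5.5 WT library, in each case the smallest an exact permutation test then allows. Over 105 named genes and 23 alternatives, 2047 of 2406 values kept their direction and side of the threshold. The sign turned for *Wnt3* (-0.36), *Etv1* (-0.29) and *Gata3* (1.17) with the replicate block, *Dcn* (1.88) with voom, *Uty* (-1.50) and *Hba-a2* (1.95) with the Y covariate, and *Cryab* (0.82) with the visceral endoderm covariate. It also turned without E5.5 WT replicate 1 for *Gata3* and *Cryab* and without replicate 2 for *Dcn* and *Hba-a2*, where values over single left-out libraries ran from -3.24 to 2.31, -2.65 to 6.71, -1.998 to 8.35 and -2.25 to 4.88. The cause was not tested.

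List medians that changed sign under some alternative were those of the formative, streak, neural, Nodal, FGF, DNA methylation, glycolysis, p53, visceral endoderm, extraembryonic ectoderm and maternal lists.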

Other observations

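The share of *Rps2-ps13* in the summed CPM of *Rps2* and *Rps2-ps13* was 46.7% and 51.1% in E5.5 WT, 44.0% to 51.1% in the 4 E5.5 *Stat3* null libraries, 7.21% to 9.41% in the 8 E6.5 nulls and 7.11% to 8.69% in the 9 E6.5 WT libraries. At E7.5, outside the comparisons above, the share was 44.6% to 50.7% in 3 of the 12 libraries and 6.22% to 8.16% in the other 9. The 3 were *Stat3* null replicate 3 and WT replicates 6 and 8. No library of the 35 lay between those levels, and the share did not follow stage at E7.5. Of the other 32 genes called in E6.5 null against E5.5 WT, 0 set those 3 E7.5 libraries apart from the other 9 without overlap. The share of all genes that did so was not counted, so this 0 does not show whether those calls are free of the split. Whether the split marks a difference in library making was not tested.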
